A study of Drosophila melanogaster with 62 samples.

Results

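This is an account of 6 sugar-responsive regulators and nutrient hormones in the larval fat body of Drosophila melanogaster: the sugar sensor Mondo (CG18362) and its partner bigmax (CG3350), the zinc finger factors sugarbabe (CG3850) and cabut (cbt), and the secreted signals daw (dawdle) and CCHa2 (CG14375). The genes were given by name, with no threshold on their values, though earlier results of these data were known when they were chosen. All 6 of 6 were found among the 14659 genes of the table. They were followed through 61 RNA-seq libraries of 18 groups.

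The fat body, the larval counterpart of liver and adipose tissue, was taken from wandering larvae, shortly before pupariation. All larvae came from mothers of a stock with UAS-Dcr2 on the X chromosome, a transgene that strengthens RNAi, and a GAL4 driver active in fat body, cg-GAL4 or r4-GAL4. Those mothers were crossed to males of a Vienna Drosophila Resource Center (VDRC) stock, either an RNAi line or a control line. The food was semi-defined with 0.15 M sucrose as the control diet or 0.3, 0.7 or 1.0 M sucrose. The cg-GAL4 males, whose fat bodies were dissected, held Tfb1 RNAi (VDRC 12580) and w1118 control larvae at 1.0 M and 0.15 M, with 3 libraries in each of the 4 groups. Tfb1 is a subunit of the general transcription factor TFIIH. The cg-GAL4 females were w1118 controls at 0.7 M and 0.15 M, with 3 libraries each, and female fat bodies were floated out of sheared larvae. The r4-GAL4 females of the w1118 control stock were reared at 0.15, 0.3, 0.7 and 1.0 M, with 3 libraries each. A further set of r4-GAL4 females carried RNAi to FOXO (VDRC 106097), p53 (VDRC 103001) or Stat92E (VDRC 106980), or came from the 60100 control stock, at 0.7 M and 0.15 M. Each group of this set had 4 libraries, except p53 RNAi larvae at 0.15 M with 3. Each factor was targeted by a single RNAi line.

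Mondo is the fly counterpart of the mammalian sugar sensors ChREBP and MondoA. It binds DNA together with bigmax, the fly Mlx, when sugar phosphates are abundant, and raises genes of glycolysis and lipid synthesis. Its targets in sugar-fed larvae include further regulators: sugarbabe, a factor related to mammalian Gli-similar proteins, and cabut, a Klf10-like factor known to repress Pepck. Dawdle is an Activin-like ligand that signals through the receptor babo and the transducer Smox and is known to act in sugar-dependent repression of digestive enzymes. CCHa2 is a peptide hormone of fat body and gut that acts on a receptor in the brain and promotes release of insulin-like peptides.

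The deposited values are FPKM, fragments per kilobase of transcript, that had been scaled library by library to a fixed rank, so they are relative within an experiment and are called scaled FPKM. Taking the low end of each library as 1 fragment, a transcript of 1 kb with a value of 1 would have had 4.34 to 23.9 fragments, so low values rest on few fragments. Changes below are differences of mean log2(scaled FPKM + 1), which understates changes of low genes, with a standard error (SE). They were tested with limma over every gene whose mean over an experiment reached 1, and called means an adjusted p under 0.05. Shares of all genes are given at that threshold only, so they do not match counts of members at an unadjusted p. The median over all genes tested lay more than 0.1 from 0 in 11 of 28 comparisons, between -0.13 and 0.17. The 9 fat body markers summed to 1630 to 15030 scaled FPKM per library, and none was at 0 throughout a group. The storage protein gene Lsp2 was at 593 to 4560, the GATA factor srp at 0.728 to 4.13, and Rfabg, which encodes apolipophorin, at 0.251 to 6.43 in the 60100 set and 2.05 to 108 elsewhere. Salivary gland markers summed to 1224 to 3307 in the males, where glue genes are read at high level, and to 5.58 to 754 in the females. Stat92E fell to 16.5% of its control mean at 0.15 M and 23.8% at 0.7 M in Stat92E RNAi larvae. The genes foxo, p53 and Tfb1, all below 1 on average, were at 56.9% to 73.4% of their controls. At 0.7 M foxo was at 0.141 to 0.241 in FOXO RNAi and 0.196 to 0.498 in controls, which overlap. At 0.15 M it was at 0.290 to 0.436 and 0.466 to 0.721, without overlap. Libraries also differed in a trend on transcript length. The slope of a library's log2 deviation on log2 length ran from -0.136 to 0.251 in the 60100 set and from -0.127 to 0.183 in r4 w1118 females, and this slope is given beside the results it moved with. In whole tissue, fewer cells of a type and less RNA per cell cannot be told apart.

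CCHa2 was the most abundant of the 6, with a median of 5.52 scaled FPKM over the 61 libraries (range 2.04 to 15.8). Dawdle had a median of 2.63 (1.18 to 5.21), bigmax 2.40 (0.354 to 3.69) and sugarbabe 1.87 (0.251 to 6.11). Mondo had a median of 0.908 (0.254 to 3.83) and cabut 0.744 (0.160 to 2.24). In cg females all 6 genes passed the filter on low values. In cg males 5 passed, without bigmax, and in r4 w1118 females 5 passed, without cabut. The 60100 set passed 4, without cabut and Mondo. Of 168 changes (6 genes in 28 comparisons), 125 could thus be tested over all genes, and 36 were called: 29 higher and 7 lower. Among all genes tested, the share called ran from 0.238% to 39.7% over the 28 comparisons. Many comparisons share libraries, so these changes are not independent.

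**Figure D1:**
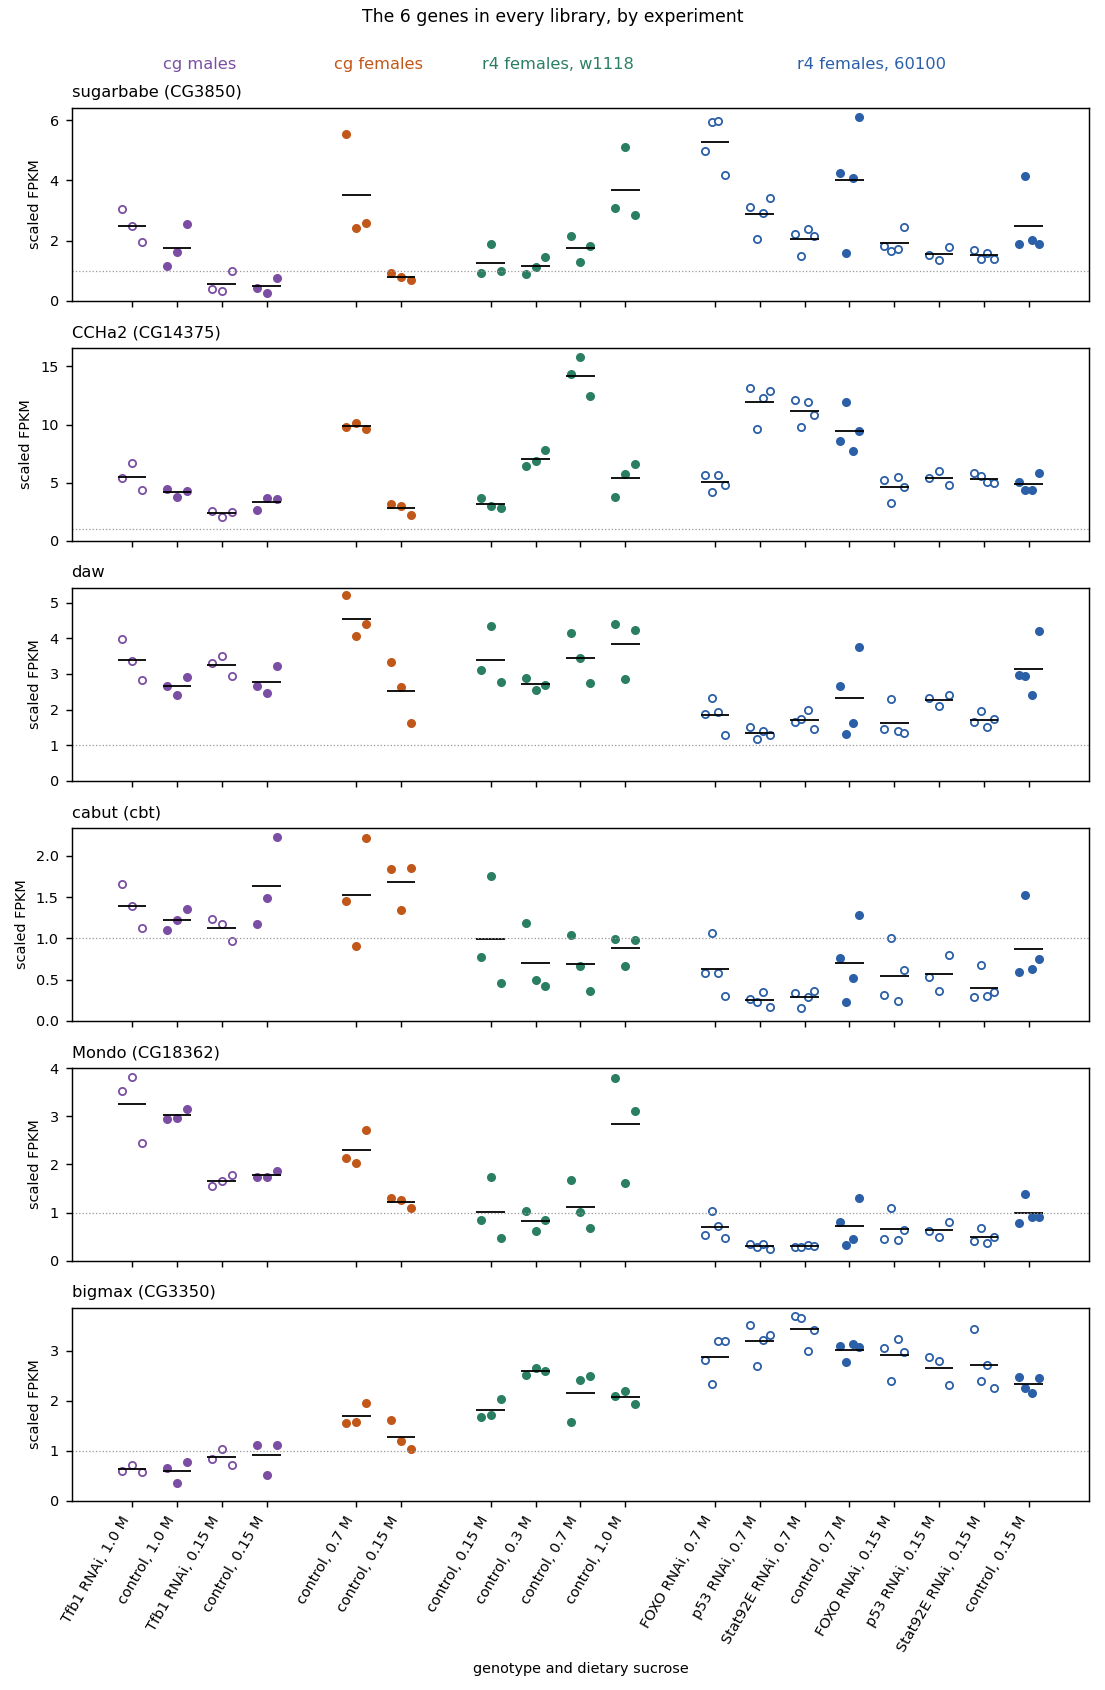
Scaled FPKM of the 6 genes (rows) in each of 61 libraries, by group; points are libraries, filled for controls and open for RNAi, black bars are group means, and the dotted line is the filter at a value of 1. CCHa2 rises above 9 in most females on 0.7 M sucrose but stays below 6 in the 4 FOXO RNAi libraries on that diet, and Mondo lies below 1.4 in every library of the 60100 set.

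High sugar was associated with more CCHa2 in nearly every setting, with more sugarbabe in both sexes, and with more Mondo in males, cg females and r4 w1118 females at the highest dose. Over 10 comparisons of a high-sugar diet with 0.15 M, CCHa2 was called higher in 8 of 10 tested, sugarbabe in 6 of 10 and Mondo in 4 of 6. The filter took means over whole experiments, so high-sugar groups could lift a gene past it. At 0.15 M sugarbabe averaged 0.48 in male controls, 0.559 in Tfb1 RNAi males and 0.791 in cg females. Mondo averaged 0.834 to 1.13 in r4 w1118 females below 1.0 M, and 2.84 at 1.0 M. It was not tested in the 60100 set. Its changes there were -0.24 in controls, -0.32 in p53 RNAi, -0.18 in Stat92E RNAi and 0.04 in FOXO RNAi. Bigmax was called higher in 2 of 8, daw higher in 1 and lower in 1 of 10, and cabut in 0 of 3. These counts stand against a background that differed between diets. Among all genes tested, the share called in either direction was 28.3% in cg male controls (1.0 M against 0.15 M). It was 14.1% in Tfb1 RNAi males and 39.7% in cg female controls at 0.7 M. The shares in r4 w1118 females were 7.72% at 0.3 M, 14.3% at 0.7 M and 17.2% at 1.0 M. At 0.7 M in the 60100 set they were 38.6% for FOXO RNAi, 38% for p53 RNAi, 35.9% for Stat92E RNAi and 31.1% for controls. Genes called higher were 145 of 2698 in male controls, 151 of 2698 in Tfb1 RNAi males and 585 of 2131 in cg females. In r4 w1118 females 138, 247 and 274 of 2177 were higher at 0.3, 0.7 and 1.0 M. In the 60100 set 451 of 2521 were higher in FOXO RNAi, 533 in p53 RNAi, 520 in Stat92E RNAi and 471 in controls. The members called in either direction were 4 of 6 in cg females, 2 of 5 in male controls and 3 of 5 in Tfb1 RNAi males. They were 1, 1 and 3 of 5 in r4 w1118 females at 0.3, 0.7 and 1.0 M. At 0.7 M in the 60100 set 1 of 4 was called in FOXO RNAi, 3 in p53 RNAi, 2 in Stat92E RNAi and 2 in controls. The comparisons within r4 w1118 females share the 0.15 M libraries.

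**Figure D2:**
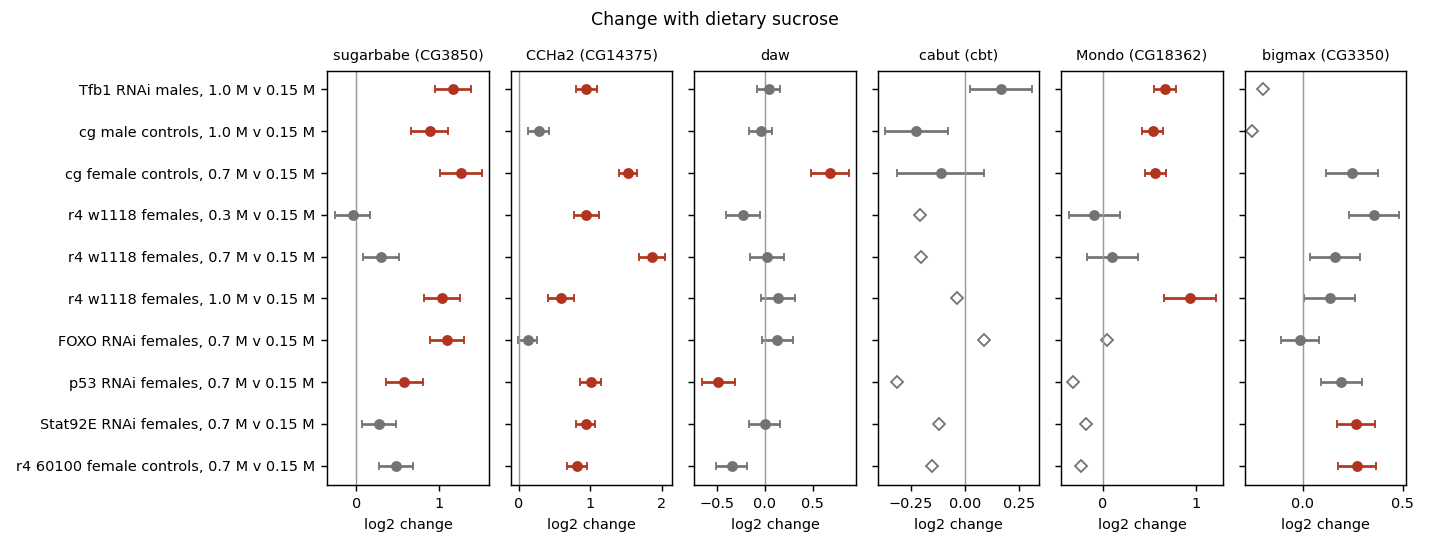
Change on the log2(scaled FPKM + 1) scale for 10 comparisons of a high-sugar diet with 0.15 M (rows) in each of the 6 genes (panels, each with its own axis). Circles with SE bars were tested over all genes, red where the adjusted p was under 0.05, and open diamonds mark genes below the filter; CCHa2 lies right of 0 in all 10 rows, and its smallest change is 0.12 in FOXO RNAi females.

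Mondo, the sensor, rose with sugar in males. It had 2.95, 2.96 and 3.15 scaled FPKM in male controls at 1.0 M, against 1.73, 1.73 and 1.87 at 0.15 M. All libraries on 1.0 M lay above all on 0.15 M, and the change was 0.53 ± 0.12 (SE, adjusted p = 0.0067). In Tfb1 RNAi males Mondo had 3.52, 3.83 and 2.45 at 1.0 M, against 1.54, 1.65 and 1.78 at 0.15 M, a change of 0.67 ± 0.12 (adjusted p = 0.0029). On the same diet, Tfb1 RNAi minus control was 0.07 ± 0.12 at 1.0 M (adjusted p = 0.68), and it was -0.07 ± 0.12 at 0.15 M (adjusted p = 0.73). In cg females Mondo had 2.15, 2.03 and 2.71 at 0.7 M, against 1.31, 1.26 and 1.102 at 0.15 M, again without overlap (change 0.56 ± 0.11, adjusted p = 0.0090). These 3 changes kept their calls under every alternative setting run.

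Mondo in r4 w1118 females averaged 1.02 ± 0.65 scaled FPKM at 0.15 M, 0.834 ± 0.21 at 0.3 M, 1.13 ± 0.51 at 0.7 M and 2.84 ± 1.1 at 1.0 M (SD, n = 3 each). Of the 1.0 M libraries, 2 lay above every library of the other diets (3.79 and 3.12), while the other (1.62) lay below the highest library at 0.15 M (1.74). The change at 1.0 M against 0.15 M was 0.93 ± 0.27 (adjusted p = 0.039), and 1.03 ± 0.27 against 0.3 M (adjusted p = 0.039, with 9.97% of genes called in that comparison). The linear trend was 1.05 ± 0.29 per 1 M (adjusted p = 0.029, with 17.5% of genes called). All 3 calls were lost with no filter and without any 1 of several libraries, and that against 0.3 M also with a pseudocount of 0.1. The change at 1.0 M against 0.15 M was 0.73 to 1.19 and lost its call without 0.15 M library 1 or 3 or without 1.0 M library 1 or 3. The change against 0.3 M was 0.85 to 1.28 and lost its call without any 0.3 M library or without 1.0 M library 1 or 3. The trend was 0.87 to 1.32 and lost its call without 0.15 M library 1 or 3, 0.3 M library 2 or 1.0 M library 1 or 3. With the length trend removed the changes were 1.00, 0.92 and 1.07, and all 3 were called (adjusted p = 0.0061, 0.015 and 0.0054).

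Mondo lay below the filter in the 60100 set. It had 0.801, 0.332, 0.452 and 1.299 scaled FPKM in controls at 0.7 M, against 0.782, 1.39, 0.908 and 0.917 at 0.15 M, so the groups overlapped. No library of p53 RNAi (0.254 to 0.348) or Stat92E RNAi (0.286 to 0.334) at 0.7 M reached 0.35, and neither group overlapped its own 0.15 M group (0.496 to 0.805 in p53 RNAi and 0.361 to 0.689 in Stat92E RNAi). The changes, -0.32 and -0.18, had the smallest p this design allows, 0.029 each in an exact two-sided permutation test, unadjusted. Stat92E RNAi minus control at 0.15 M was -0.42 (exact permutation p = 0.029). The length slope moved with these values: Mondo, whose transcript is 4068 bases long, correlated with it at r = 0.89 over the 31 libraries, which share their scaling. In p53 RNAi the slopes were -0.127 to -0.106 at 0.7 M and -0.019 to 0.054 at 0.15 M. With the length trend removed the 3 changes were -0.03, -0.07 and -0.16, with exact permutation p = 0.63, 0.69 and 0.14.

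Bigmax, the dimer partner of Mondo, was called higher with sugar only in 2 groups of the 60100 set. In the controls it had 3.09, 2.79, 3.14 and 3.08 scaled FPKM at 0.7 M, against 2.48, 2.26, 2.15 and 2.47 at 0.15 M. The groups did not overlap, and the change was 0.27 ± 0.10 (adjusted p = 0.034), where the median of all genes was 0.11. In Stat92E RNAi larvae bigmax had 3.69, 3.65, 2.99 and 3.41 at 0.7 M, against 3.45, 2.40, 2.72 and 2.26 at 0.15 M (change 0.27 ± 0.10, adjusted p = 0.033). Neither call was stable. In controls it was lost (change 0.24 to 0.30) without 0.15 M library 2 or 3 or without 0.7 M library 1 or 3, and with the length trend removed, where the change was 0.10 (adjusted p = 0.34). In Stat92E RNAi it was lost (change 0.21 to 0.36) without 0.15 M library 2, 3 or 4 or without 0.7 M library 1, 2 or 4, and with no filter. The bigmax transcript is short, 954 bases, and its level ran against the length slope, with r = -0.58 over the 31 libraries of the 60100 set and -0.83 over 12 in r4 w1118 females.

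Bigmax in r4 w1118 females averaged 1.81 ± 0.20 scaled FPKM at 0.15 M, 2.59 ± 0.076 at 0.3 M, 2.17 ± 0.51 at 0.7 M and 2.08 ± 0.13 at 1.0 M (SD, n = 3 each). All 0.3 M libraries lay above all 0.15 M libraries, but the change of 0.36 ± 0.13 did not pass (adjusted p = 0.10). In cg females it averaged 1.70 ± 0.23 at 0.7 M and 1.28 ± 0.31 at 0.15 M (SD, n = 3 each), with overlap (adjusted p = 0.17). In the males bigmax was below the filter, at 0.354 to 0.782 over the 6 libraries on 1.0 M and 0.511 to 1.12 over the 6 on 0.15 M, which corresponds to only 2.4 to 7.2 estimated fragments per library. An exon of bigmax overlaps CG3368 on the opposite strand by up to 83 bases in the Ensembl annotation, and CG3368 had group means of 0.143 to 0.469. Whether the counting used strand is not given in the sources used here, so a small share of the reads could belong to either gene.

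Of the other genes of the Mondo network, the Max-family factors Mnt and Max and the Myc homologue dm, 0 of 3 passed the filter in any experiment. Their highest values were 1.17 for Mnt, 1.1 for Max and 0.995 for dm. In the 60100 set dm averaged 0.0371 and Mnt 0.119, and in cg males they averaged 0.584 and 0.842. These sets were scaled apart and differ in sex and driver, so their levels cannot be compared directly. No test over all genes was possible for them.

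Sugarbabe rose on high sugar in males of both genotypes. It had 3.04, 2.48 and 1.95 scaled FPKM in Tfb1 RNAi males at 1.0 M, against 0.379, 0.322 and 0.976 at 0.15 M. In male controls it had 1.16, 1.61 and 2.54 at 1.0 M, against 0.429, 0.251 and 0.759 at 0.15 M. In both genotypes every library on 1.0 M lay above every library on 0.15 M. The change was 1.18 ± 0.22 in Tfb1 RNAi (adjusted p = 0.0048) and 0.89 ± 0.22 in controls (adjusted p = 0.013), and the difference between these changes, 0.29 ± 0.31, did not pass (adjusted p = 0.58). The values on 0.15 M stood for only 2.0 to 11 estimated fragments.

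In cg females sugarbabe had 5.56, 2.43 and 2.57 scaled FPKM at 0.7 M, against 0.917, 0.779 and 0.676 at 0.15 M, a change of 1.27 ± 0.25 (adjusted p = 0.0093). All libraries on 0.7 M were above all on 0.15 M, and library 1 on 0.7 M stood more than 2-fold above the other two. In the r4 w1118 dose series, larvae on 0.15 M sucrose had 0.924, 1.87 and 0.980 scaled FPKM of sugarbabe, and those on 0.3 M had 0.889, 1.13 and 1.47. On 0.7 M the values were 2.15, 1.29 and 1.84, and on 1.0 M they were 3.08, 5.12 and 2.84. The 3 lower diets overlapped, and the libraries on 1.0 M lay above all others. The change at 1.0 M was 1.04 ± 0.22 against 0.15 M (adjusted p = 0.0087) and 1.09 ± 0.22 against 0.3 M (adjusted p = 0.012), and the trend was 1.21 ± 0.23 per 1 M (adjusted p = 0.0048). At 0.7 M against 0.15 M the change was 0.30 ± 0.22 (adjusted p = 0.36). The male, cg female and r4 w1118 calls of sugarbabe held under every alternative run, including removal of the length trend.

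Among the 60100 set groups, the rise of sugarbabe was called in FOXO RNAi and p53 RNAi larvae. It had 4.98, 5.96, 5.96 and 4.18 scaled FPKM in FOXO RNAi larvae at 0.7 M, against 1.81, 1.66, 1.73 and 2.44 at 0.15 M. These groups were well apart, with a change of 1.104 ± 0.21 (adjusted p = 0.00016) that held under every alternative. In p53 RNAi it had 3.13, 2.06, 2.91 and 3.41 at 0.7 M, against 1.54, 1.37 and 1.80 at 0.15 M (change 0.58 ± 0.23, adjusted p = 0.044). This call was lost with no filter, with the length trend removed (adjusted p = 0.096) and without any 0.15 M library or 0.7 M library 1, 3 or 4, where the change was 0.52 to 0.69. In Stat92E RNAi it had 2.21, 1.49, 2.40 and 2.14 at 0.7 M, against 1.67, 1.40, 1.59 and 1.39 at 0.15 M (change 0.27 ± 0.21, adjusted p = 0.32).

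The 60100 controls spread widely. They had 4.26, 1.59, 4.10 and 6.11 scaled FPKM of sugarbabe at 0.7 M, against 1.90, 4.16, 2.02 and 1.88 at 0.15 M. Library 2 at 0.7 M lay below every library at 0.15 M, and library 2 at 0.15 M lay above 2 of the 0.7 M libraries, so the groups overlapped. The change of 0.48 ± 0.21 did not pass (adjusted p = 0.082). The difference between the responses of FOXO RNAi and control larvae was 0.62 ± 0.30 (adjusted p = 0.15), so the larger change in FOXO RNAi was not shown to differ from that in controls. In the comparison of Stat92E RNAi with controls at 0.7 M, sugarbabe was lower by a change of -0.63 ± 0.21 (adjusted p = 0.046), in a comparison where 13.1% of genes were called. That call was lost with a pseudocount of 0.1, with no filter and without any Stat92E RNAi library or control library 1, 3 or 4 (change -0.92 to -0.44).

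Sugarbabe shares up to 98 bases of exon with CG13319 on the same strand in the Ensembl annotation, so reads could be split between them. CG13319 was also the gene whose level was most like that of sugarbabe, with r = 0.795 over 61 libraries after centring each experiment, among 1551 genes that passed the filter in all 4 experiments. Its diet changes were called in cg females (1.00 ± 0.23, adjusted p = 0.017), male controls (0.65 ± 0.16, adjusted p = 0.014) and 60100 controls (0.61 ± 0.15, adjusted p = 0.0045). They were also called in Tfb1 RNAi males and in all 3 knockdowns of the 60100 set (adjusted p = 0.0051 to 0.04). In r4 w1118 females no dose of CG13319 against 0.15 M was called (adjusted p = 0.27 for 0.3 M, 0.30 for 0.7 M and 0.056 for 1.0 M). The next most alike were Gpdh, a glycerol-3-phosphate dehydrogenase that links glycolysis to lipid synthesis (r = 0.752), and desat1, a fatty acid desaturase (r = 0.736).

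Cabut was not called in any of the comparisons in which it passed the filter. In cg females it had 1.46, 0.910 and 2.22 scaled FPKM at 0.7 M, against 1.84, 1.34 and 1.86 at 0.15 M, which overlap (change -0.11 ± 0.20, adjusted p = 0.69). In males it had 1.66, 1.39 and 1.12 in Tfb1 RNAi at 1.0 M, and 1.23, 1.18 and 0.966 in Tfb1 RNAi at 0.15 M (change 0.17 ± 0.14, adjusted p = 0.54). Male controls had 1.105, 1.22 and 1.35 at 1.0 M, against 1.17, 1.48 and 2.23 at 0.15 M (change -0.22 ± 0.14, adjusted p = 0.27). No change of cabut with sucrose passed the test in either sex.

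Cabut in r4 w1118 females averaged 0.994 ± 0.68 scaled FPKM at 0.15 M, 0.700 ± 0.42 at 0.3 M, 0.691 ± 0.34 at 0.7 M and 0.879 ± 0.18 at 1.0 M (SD, n = 3 each), with all groups overlapping. At 0.7 M in the 60100 set it averaged 0.632 in FOXO RNAi, 0.251 in p53 RNAi, 0.288 in Stat92E RNAi and 0.699 in controls. At 0.15 M it averaged 0.543 in FOXO RNAi, 0.562 in p53 RNAi, 0.403 in Stat92E RNAi and 0.871 in controls. The pair of diets without overlap was p53 RNAi, with 0.164 to 0.348 at 0.7 M against 0.358 to 0.795 at 0.15 M (change -0.31, exact two-sided permutation p = 0.029, unadjusted). Cabut followed the length slope closely, with r = 0.87 over the 31 libraries of the 60100 set and 0.84 over 12 in r4 w1118 females, and 0.02 over 12 in cg males. With the length trend removed the p53 RNAi change was -0.24 (exact permutation p = 0.14).

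Dawdle, the Activin-like ligand, rose in cg females. It had 5.21, 4.06 and 4.39 scaled FPKM at 0.7 M, against 3.34, 2.63 and 1.62 at 0.15 M. The groups did not overlap, and the change was 0.68 ± 0.20 (adjusted p = 0.034). The call was lost with no filter and without 0.15 M library 2 or 3 or any 0.7 M library, where the change was 0.48 to 0.84, and it was kept with the length trend removed (0.54, adjusted p = 0.037). No change with diet passed in males, where daw averaged 3.39 ± 0.59 at 1.0 M and 3.25 ± 0.28 at 0.15 M in Tfb1 RNAi, and 2.66 ± 0.25 at 1.0 M and 2.78 ± 0.40 at 0.15 M in controls (SD, n = 3 each), with adjusted p = 0.88 and 0.82. Daw in r4 w1118 females averaged 3.41 ± 0.83 at 0.15 M, 2.71 ± 0.18 at 0.3 M, 3.44 ± 0.71 at 0.7 M and 3.84 ± 0.86 at 1.0 M (SD, n = 3 each), and no dose passed.

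Daw in the 60100 set was highest in the controls at 0.15 M, with 2.96, 2.94, 2.40 and 4.21 scaled FPKM. FOXO RNAi larvae on the same diet had 1.45, 2.29, 1.41 and 1.33, all below every control library (change -0.65 ± 0.16, adjusted p = 0.0068, with 17.3% of genes called). This call held under every alternative, and the change was -0.47 with the length trend removed (adjusted p = 0.021). Stat92E RNAi larvae had 1.66, 1.95, 1.52 and 1.74, also below every control library (change -0.59 ± 0.16, adjusted p = 0.047, with 3.09% of genes called). That second call was lost with a pseudocount of 0.1, after median-ratio rescaling, with the length trend removed (-0.43, adjusted p = 0.10) and without any of control libraries 1, 2 and 4 or Stat92E RNAi libraries 1, 3 and 4 (change -0.68 to -0.47). At 0.15 M p53 RNAi larvae had 2.33, 2.10 and 2.40, a change of -0.32 ± 0.17 that did not pass (adjusted p = 0.35, with 2.14% of genes called).

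At 0.7 M daw had 1.88, 2.33, 1.93 and 1.299 scaled FPKM in FOXO RNAi, 1.505, 1.18, 1.39 and 1.28 in p53 RNAi, 1.66, 1.75, 1.98 and 1.47 in Stat92E RNAi and 2.66, 1.31, 1.61 and 3.77 in controls. The control range covered all Stat92E RNAi libraries, 3 of 4 FOXO RNAi libraries and 2 of 4 p53 RNAi libraries, and none of the 3 comparisons with controls passed (adjusted p = 0.45 for FOXO RNAi, 0.063 for p53 RNAi and 0.31 for Stat92E RNAi). Between diets daw fell in p53 RNAi larvae, by 0.49 ± 0.17 on the log2 scale (adjusted p = 0.031), without overlap. The call was lost after median-ratio rescaling, with the length trend removed (-0.35, adjusted p = 0.073) and without 0.15 M library 1 or 3 or 0.7 M library 2 or 4 (change -0.53 to -0.45). In 60100 controls the change with diet was -0.35 ± 0.16 (adjusted p = 0.10). The daw transcript is 2819 bases long, and daw correlated with the length slope at r = 0.78 in the 60100 set, 0.79 in r4 w1118 females and 0.78 in the males (31, 12 and 12 libraries).

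Of 17 other genes of Activin and BMP signalling, 3 passed the filter in at least 1 experiment and 14 in none. The dawdle receptor babo was at 0.0749 to 0.892 over all libraries and the type II receptor put at 0.0161 to 1.05. Smox, the transducer, passed in cg females, with a mean of 1.37. The tolloid-related protease tok, which can process ligands of this family, was called higher in cg females (1.95 at 0.7 M and 1.08 at 0.15 M, change 0.53 ± 0.17, adjusted p = 0.048). The BMP ligand gbb was called higher on 0.7 M in Stat92E RNAi larvae (3.27 at 0.7 M and 2.27 at 0.15 M, change 0.41 ± 0.12, adjusted p = 0.0085). Of all genes tested, 39.7% were called between diets in cg females and 35.9% in Stat92E RNAi larvae. Among 13 sugar-repressed digestive enzymes, 4 passed the filter in at least 1 experiment and 9 in none. Of the 13, only the maltase Mal-B2 passed the filter in females, so no other could be tested there. It was called higher in cg females (4.26 at 0.7 M and 2.15 at 0.15 M), in Stat92E RNAi (9.79 at 0.7 M and 4.48 at 0.15 M) and in 60100 controls (7.59 at 0.7 M and 3.24 at 0.15 M). In male controls Mal-B2 was lower, at 1.63 on 1.0 M and 2.93 on 0.15 M (change -0.59 ± 0.18, adjusted p = 0.034).

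CCHa2 rose with sugar in females of all 3 control crosses. In cg females it had 9.80, 10.2 and 9.59 scaled FPKM at 0.7 M, against 3.18, 2.98 and 2.19 at 0.15 M, a ratio of means of 3.54. The groups were far apart relative to their spread, and the change was 1.53 ± 0.13 (adjusted p = 0.00046). In the 60100 controls it had 8.61, 12.0, 7.75 and 9.48 at 0.7 M, against 5.04, 4.38, 4.36 and 5.86 at 0.15 M, a ratio of 1.92 (change 0.81 ± 0.13, adjusted p = 0.0001). Both calls held under every alternative. With the length trend removed the change was 1.41 in cg females (adjusted p = 0.00067) and 0.69 in 60100 controls (adjusted p = 0.00012).

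The dose series of r4 w1118 females showed a peak. Larvae on 0.15 M sucrose had 3.69, 3.03 and 2.79 scaled FPKM of CCHa2, and those on 0.3 M had 6.39, 6.83 and 7.83. On 0.7 M the values were 14.3, 15.8 and 12.4, and on 1.0 M they were 3.76, 5.74 and 6.64. The first 3 diets rose without overlap, and the 1.0 M libraries fell back below all 0.7 M libraries to the range of the 0.3 M diet and below it. Against 0.15 M, larvae on 0.3 M differed by 0.95 ± 0.18 (adjusted p = 0.019). The change on 0.7 M was 1.87 ± 0.18 (adjusted p = 0.00014), and on 1.0 M it was 0.59 ± 0.18 (adjusted p = 0.045). The comparison of 1.0 M with 0.7 M was chosen after these values were seen. In it CCHa2 changed by -1.27 ± 0.18 (adjusted p = 0.0096), where only 0.551% of genes were called, 12 of 2177. CCHa2 was 1 of those 12, and the only one of the 5 members tested.

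Of the dose-series calls, that at 0.7 M held under every alternative. The call at 0.3 M was lost without 0.15 M library 3 or 0.3 M library 2 or 3 (change 0.87 to 1.03). The call at 1.0 M was lost, among other settings, with no filter, with the length trend removed (0.48, adjusted p = 0.095) and without any 0.15 M library or 1.0 M library 2 or 3 (change 0.45 to 0.79). The fall between 0.7 M and 1.0 M was lost only without 0.7 M library 2, where the adjusted p was 0.065, and the change stayed between -1.42 and -1.08. The linear trend, 0.79 ± 0.19 per 1 M (adjusted p = 0.017), was lost without 1.0 M library 3 (adjusted p = 0.056), and a straight line does not describe a series that turns back. Sugarbabe and Mondo had their highest means on the diet where CCHa2 had turned back.

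**Figure D3:**
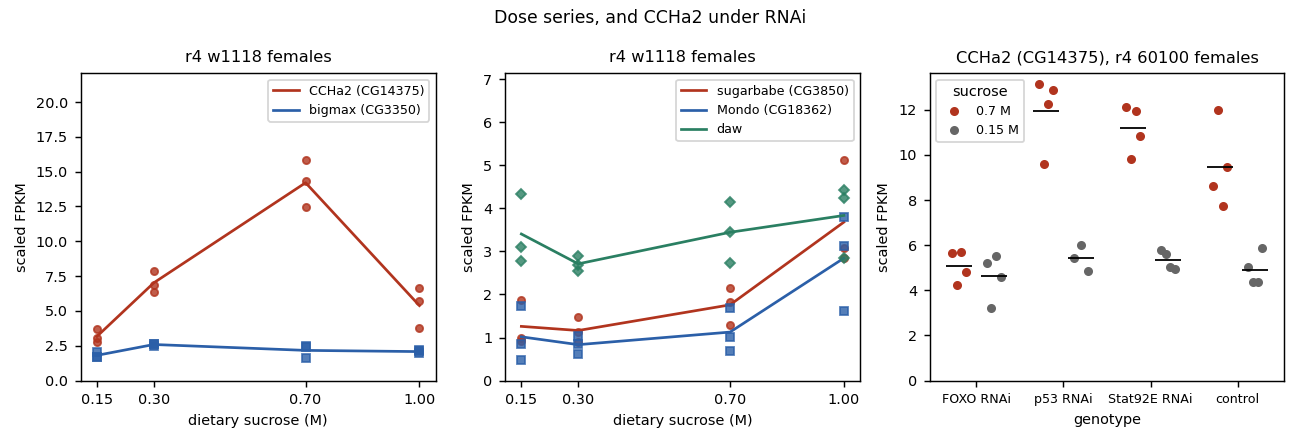
Left and middle, scaled FPKM against dietary sucrose (M) in r4 w1118 females, with points for libraries and lines through the means of 3 libraries; CCHa2 peaks at 0.7 M with a mean of 14.2, while sugarbabe and Mondo are highest at 1.0 M, with means of 3.68 and 2.84. Right, CCHa2 in the 60100 set at 0.7 M and 0.15 M, with black bars for means; the FOXO RNAi group at 0.7 M averages 5.10, against 9.45 in controls.

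In males CCHa2 had 5.44, 6.67 and 4.39 scaled FPKM in Tfb1 RNAi at 1.0 M, against 2.56, 2.04 and 2.48 at 0.15 M, without overlap (change 0.94 ± 0.15, adjusted p = 0.0017). Male controls had 4.49, 3.81 and 4.32 at 1.0 M, against 2.62, 3.70 and 3.61 at 0.15 M. Those groups did not overlap either, but the margin was small and the change of 0.28 ± 0.15 did not pass (adjusted p = 0.18). After removal of the length trend it was 0.45 and passed (adjusted p = 0.034). The difference between the Tfb1 RNAi and control responses was 0.66 ± 0.21 (adjusted p = 0.080, with 8.41% of genes called), so the larger change in Tfb1 RNAi was not shown to differ. It passed where all experiments shared 1 fit.

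Tfb1 RNAi against control called 0 of the 5 members tested at 1.0 M, where 24.1% of genes were called, and 0 at 0.15 M, where 36.2% were called, by limma. At an unadjusted p under 0.05, for which no share of all genes was counted, there were 0 members at 1.0 M and 1 at 0.15 M. That member was CCHa2, with a change of -0.35 ± 0.15. With the length trend removed daw was called at 0.15 M (0.30, adjusted p = 0.037).

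No rise of CCHa2 with sugar passed in FOXO RNAi larvae, and their level on 0.7 M was below that of controls. CCHa2 had 5.65, 4.23, 5.69 and 4.83 scaled FPKM in FOXO RNAi larvae at 0.7 M, against 5.23, 3.23, 5.51 and 4.58 at 0.15 M. These groups overlapped almost whole, with a change of 0.12 ± 0.13 (adjusted p = 0.49). At 0.7 M every FOXO RNAi library lay below every control library, at 0.539 times the control mean (change -0.77 ± 0.13, adjusted p = 7.8e-05, with 26.8% of genes called). At 0.15 M FOXO RNAi and control libraries overlapped (change -0.08 ± 0.13, adjusted p = 0.73). The difference of the FOXO RNAi effect between diets was -0.69 ± 0.19 (adjusted p = 0.017, with 13.6% of genes called). CCHa2 was the only one of the 4 members tested to be called there, and both this call and that at 0.7 M held under all alternatives run, with the difference between -0.82 and -0.58 when single libraries were left out. At an unadjusted p under 0.05 by limma there were 4 of 4 members. The others were sugarbabe (0.62 ± 0.30), daw (0.47 ± 0.23) and bigmax (-0.28 ± 0.14). The length slope moved with CCHa2 as well, with r = -0.58 over the 31 libraries of the 60100 set, and at 0.7 M it ran from -0.05 to 0.223 in FOXO RNAi and from -0.136 to 0.119 in controls. After removal of the length trend the difference was -0.56 (adjusted p = 0.028).

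The rise of CCHa2 was called in the other knockdowns. It had 13.1, 9.61, 12.2 and 12.9 scaled FPKM in p53 RNAi at 0.7 M, against 5.44, 6.01 and 4.84 at 0.15 M (change 1.01 ± 0.15, adjusted p = 1.8e-05). In Stat92E RNAi it had 12.1, 9.81, 12.0 and 10.8 at 0.7 M, against 5.80, 5.61, 5.05 and 4.96 at 0.15 M (change 0.94 ± 0.13, adjusted p = 1.2e-05). In both, all libraries on 0.7 M were above all on 0.15 M. The effect of the knockdown on this response, relative to controls, was 0.19 ± 0.20 for p53 (adjusted p = 1) and 0.12 ± 0.19 for Stat92E (adjusted p = 0.83). Those 2 comparisons called 0.278% and 0.238% of genes and 0 of 4 members, with 0 members at an unadjusted p under 0.05. Against controls at 0.7 M, p53 RNAi called 0 of 4 members, where 12.3% of genes were called. At an unadjusted p under 0.05 there were 2 members, CCHa2 (0.32 ± 0.13) and daw (-0.46 ± 0.16). The share of all genes at this looser threshold was not counted.

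Ordered by mean in the 60100 set, CCHa2 was at 12.0 in p53 RNAi, 11.2 in Stat92E RNAi and 9.45 in controls at 0.7 M, and these groups overlapped. A gap followed, and the remaining 5 groups lay between 5.43 and 4.64 and overlapped each other: p53 RNAi and Stat92E RNAi at 0.15 M, FOXO RNAi at 0.7 M, and controls and FOXO RNAi at 0.15 M.

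**Figure D4:**
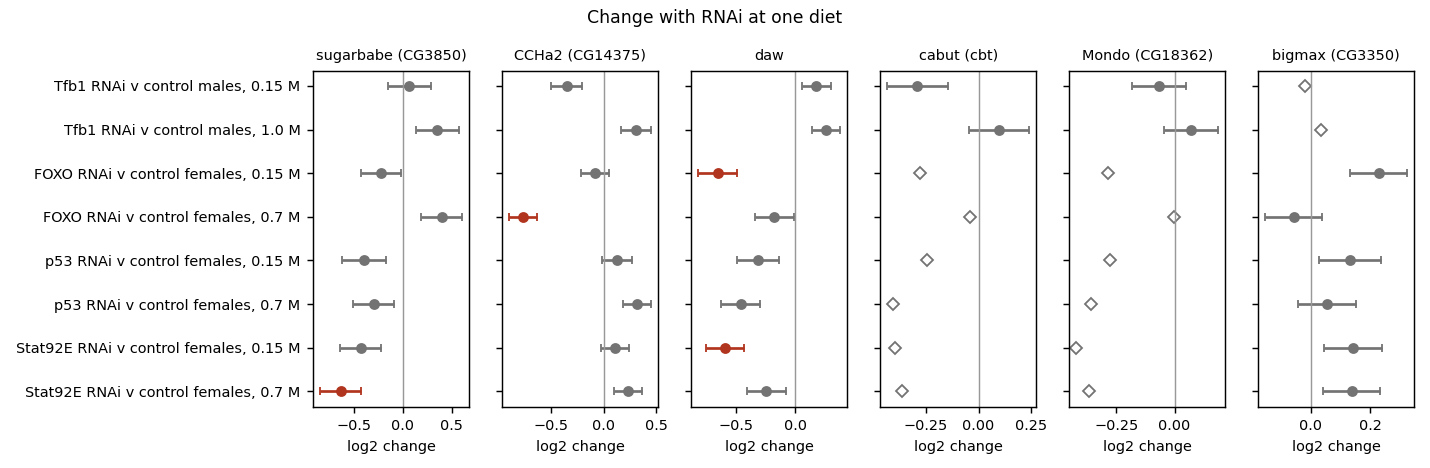
Change on the log2(scaled FPKM + 1) scale between RNAi and control larvae on the same diet (rows) in each of the 6 genes (panels, each with its own axis). Circles with SE bars were tested over all genes, red where the adjusted p was under 0.05, and open diamonds mark genes below the filter; red points are CCHa2 in FOXO RNAi at 0.7 M, daw in FOXO RNAi and Stat92E RNAi at 0.15 M, and sugarbabe in Stat92E RNAi at 0.7 M.

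Markers of enteroendocrine cells, gut cells that also make CCHa2, were near 0. Of 7 genes on that list, 6 (Tk, NPF, Dh31, AstA, AstC and CCHa1) were listed at 0 in every library of 17 of 18 groups, and 4 of them in FOXO RNAi at 0.15 M. The list summed to at most 0.646 in any library, against a lowest CCHa2 value of 2.04. In r4 w1118 females the 6 named genes were at 0, so the sum there is the value of the remaining gene, pros, alone. Pros was at 0.112 to 0.471 at 0.15 M and 0.158 to 0.312 at 0.3 M. It was at 0.487 to 0.646 at 0.7 M, the diet where CCHa2 peaked, and 0.0820 to 0.162 at 1.0 M. Midgut markers (10 genes) summed to 46.9 to 132 at 0.15 M, 16.5 to 48.8 at 0.3 M, 2.70 to 5.03 at 0.7 M and 2.97 to 6.04 at 1.0 M in r4 w1118 females. All sums at 0.7 M and 1.0 M lay below those at 0.3 M, and LysB, LysE, Amy-d and Amy-p were at 0 in all libraries at 0.7 M. At 0.7 M in the 60100 set they summed to 39.95 to 84.8 in FOXO RNAi larvae and 51.1 to 130 in control larvae. At 0.15 M they summed to 110 to 339 in FOXO RNAi and 7.71 to 107 in controls. In cg females midgut markers summed to 1.76 to 1.93 at 0.7 M and 4.56 to 62.2 at 0.15 M, and 6 hemocyte markers summed to 0.282 to 0.619 at 0.7 M and 9.15 to 13.3 at 0.15 M. At 0.7 M muscle markers (8 genes) summed to 28.8 to 52.7 in FOXO RNAi larvae and 19.3 to 65.3 in 60100 controls. At 0.15 M they summed to 5.76 to 15.6 in FOXO RNAi and 9.33 to 15.7 in controls. Fat body markers summed to 10520 to 12300 at 0.7 M and 5288 to 7189 at 0.15 M in cg females, but to 2835 to 4451 at 1.0 M and 9368 to 11050 at 0.15 M in male controls. In the 60100 set they summed to 6489 to 7819 in FOXO RNAi and 9444 to 13120 in controls on 0.7 M, and to 7810 to 9623 in FOXO RNAi and 13910 to 14960 in controls on 0.15 M. The part of these shifts in the results for the 6 genes was not tested.

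The size of the response differed between the female experiments. The 0.7 M change of CCHa2 was larger in r4 w1118 females than in 60100 controls by 1.05 ± 0.21 (adjusted p = 0.0035, with 4.92% of 1686 genes called). It was larger in cg females than in 60100 controls by 0.72 ± 0.21 (adjusted p = 0.010, with 24.7% called). The first held under every alternative, and the second was lost after median-ratio rescaling and without cg 0.15 M library 3 (adjusted p = 0.070 at most). Daw also differed between cg females and 60100 controls, by 1.03 ± 0.25 (adjusted p = 0.0025), under every alternative. Between cg and r4 w1118 females 0 of 4 members tested were called by limma, where 10.9% of genes were. At an unadjusted p under 0.05, for which no share of all genes was counted, there were 2, sugarbabe (0.97 ± 0.35) and daw (0.66 ± 0.27). The 60100 controls enter 2 of these 3 comparisons. The r4 w1118 females and 60100 controls share the r4 driver, and the cg and r4 w1118 females share the w1118 stock. The cg females and 60100 controls differ in both. In each comparison, what differs in driver or stock cannot be told apart from whatever else set the experiments apart.

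**Figure D5:**
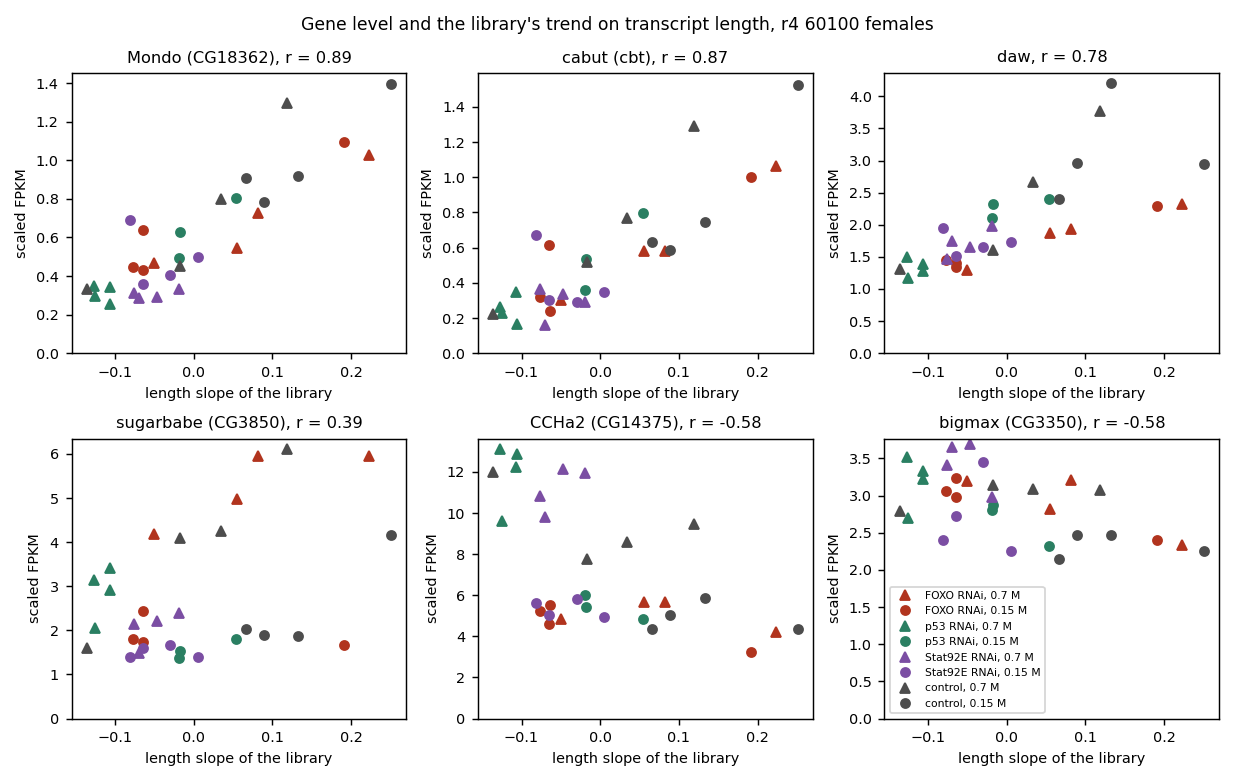
Scaled FPKM of each gene (panels) against the slope of the library's log2 deviation on log2 transcript length, for the 31 libraries of the 60100 set, colored by genotype with triangles for 0.7 M and circles for 0.15 M; r is Pearson's correlation with log2(scaled FPKM + 1). Mondo, cabut and daw climb with the slope (r = 0.89, 0.87 and 0.78), and the CCHa2 triangles of FOXO RNAi lie in the lower band with the 0.15 M libraries.

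Enzymes of sugar and lipid metabolism that are reported to depend on Mondo or its targets were also counted. Of 16 tested in cg females, 11 were called higher and 0 lower, with a median change of 0.97 where all genes had 0.15. Of all genes there 39.7% were called, 585 of 2131 higher. Of 16 in r4 w1118 females 4, 7 and 10 were called higher at 0.3, 0.7 and 1.0 M and 0 lower, with medians of 0.51, 0.53 and 0.80 where all genes had 0.15, 0.15 and 0.08. Of all 2177 genes 138, 247 and 274 were called higher at these doses. At 1.0 M Gpdh averaged 15.2 scaled FPKM, against 1.05 at 0.15 M, and the desaturase desat1 averaged 30.9, against 5.17. Between diets in the 60100 set 10 of 18 were called higher in FOXO RNAi, 2 in p53 RNAi, 5 in Stat92E RNAi and 10 in controls, and 0 lower, with medians of 0.66, 0.21, 0.28 and 0.48 where all genes had -0.05, 0.06, 0.06 and 0.11. Of all 2521 genes 451 were called higher in FOXO RNAi, 533 in p53 RNAi, 520 in Stat92E RNAi and 471 in controls. The malic enzyme Men averaged 10.7 in FOXO RNAi at 0.7 M, against 2.46 at 0.15 M. In males 7 of 14 were called higher and 0 lower in Tfb1 RNAi, where 151 of all 2698 genes were called higher. In male controls 2 of 14 were called higher and 2 lower, a share near the 28.3% of all genes called.

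Against controls at 0.7 M, 6 of 18 of these enzymes were called lower and 0 higher in p53 RNAi, and the other 12 did not pass. Their median change was -0.39 where all genes had 0.01, and 12.3% of all genes were called, 195 of 2521 lower. In Stat92E RNAi 5 were called lower and 0 higher, with a median of -0.44 where all genes had 0.05, and 13.1% of all genes were called, 160 of 2521 lower. The fatty acid synthase FASN1 averaged 2.26 in p53 RNAi and 1.89 in Stat92E RNAi, against 5.75 in controls. In FOXO RNAi 2 were called higher and 2 lower, where 26.8% of all genes were called. Zw, the glucose-6-phosphate dehydrogenase of the pentose phosphate pathway, averaged 8.38 in FOXO RNAi and 2.89 in controls. In Tfb1 RNAi males at 0.15 M 10 of 14 were called lower and 0 higher, where 36.2% of all genes were called, 696 of 2698 lower, with Gnmt, a glycine N-methyltransferase, at 3.37, against 56.8 in controls.

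Among 22 fat body signals and genes of the insulin and adipokinetic hormone (AKH) axis, 9 passed the filter in each experiment. AkhR, the AKH receptor, was called higher with sugar in all 3 female control crosses, averaging 3.53 at 0.7 M and 0.733 at 0.15 M in cg females, and 2.15 at 0.7 M and 1.35 at 0.15 M in 60100 controls. In r4 w1118 females AkhR averaged 1.03 at 0.15 M, 1.91 at 0.3 M, 2.82 at 0.7 M and 2.93 at 1.0 M. ImpL2, a secreted antagonist of insulin-like peptides, moved the other way from CCHa2 under FOXO RNAi: it averaged 6.69 scaled FPKM in FOXO RNAi, against 2.14 in controls, at 0.7 M (change 1.29 ± 0.17, adjusted p = 1.1e-06), and the difference of the FOXO effect between diets was 1.49 ± 0.24 (adjusted p = 0.00011). Gbp2, a growth-blocking peptide, averaged 15.6 in FOXO RNAi, against 31.8 in controls, at 0.7 M (change -0.998 ± 0.14, adjusted p = 5.2e-06). Of all genes tested, 26.8% were called in FOXO RNAi against controls at 0.7 M, and 13.6% in the difference between diets. The CCHa2 receptor CCHa2-R, a brain gene, was listed at 0 in every library. Among 13 other nutrient-responsive regulators, 6 passed the filter in at least 1 experiment and 7 in none. Of these, Thor, a translation repressor, averaged 30.8 at 0.7 M and 50.6 at 0.15 M in 60100 controls (change -0.76 ± 0.23, adjusted p = 0.014, with 31.1% of genes called).

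By correlation over libraries after centring each experiment, CCHa2 was most like CG13912 (r = 0.819), CG3246 (0.774) and the ornithine decarboxylase Odc1 (0.756), over 61 libraries. Daw was most like CG3961 (0.839), the cGMP-dependent kinase for (0.821) and CG5850 (0.816). Mondo, over the 30 libraries of the 3 experiments in which it passed, was most like ref(2)P (0.865), an autophagy receptor, CG8788 (0.854) and CG3036 (0.832). Bigmax, over 49 libraries, was most like the ribosomal protein genes RpS5a (0.781), RpL8 (0.747) and RpL7A (0.747). Cabut, over 18 libraries, was most like G-salpha60A (0.752), CG30424 (0.704) and Rab5 (0.694). These libraries share diets, genotypes and the length trend, whose slope correlated with daw at 0.711 and with bigmax at -0.52 over the same libraries.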

How the data were processed

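RiboZero removed rRNA from fat body RNA, and libraries were read on an Illumina HiSeq, per the labels' protocols. The submitters' processing notes name TopHat 1.3.2, Bowtie 0.12.7, Cufflinks 1.1.0 and the dm3 build. The authors deposited 1 table of FPKM values for 14659 genes in 61 columns. Within an experiment each library has an equal number of genes at or above 1 (2080 in cg females, 2117 in r4 w1118 females, 2464 or 2465 in the 60100 set and 2649 in cg males), a scaling that the labels do not state. No counts were given, so depth is only estimated: the 5th percentile of value times transcript length was taken as 1 fragment. Of the columns, 18 were matched to samples by title and 43 to a group; library numbers in those groups are column order and serve as names. The labels list 4 samples of p53 RNAi at 0.15 M, of which 3 have columns here. The headings of male columns name r4 or D2, but the labels give cg-GAL4 for them and were followed.

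Changes come from limma 3.58.1 (R 4.3.3) on log2(scaled FPKM + 1), with a mean per group in each experiment alone, a mean-variance trend, genes with a mean of at least 1 and two-sided p-values adjusted by Benjamini-Hochberg over all genes tested; the fit was tested on simulated data. For the 3 differences between female experiments a single fit held the genes that pass in each of them. Members below the filter got an exact permutation test, two-sided, whose smallest p is 0.1 for 3 against 3 and 0.029 for 4 against 4 or 3 against 4. Whether libraries stem from separate sets of larvae is not given in the labels, so each p-value reflects only the spread among these libraries, which may be technical. Genes were matched by identifier; lengths, overlaps and current symbols come from the Ensembl BDGP6 annotation, which gave a length to 89.5% of genes and is not the build of the files, so no coordinates are given. Of 140 list genes 139 were found.

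The genes, lists and tests were chosen with earlier results of these data known. The text names the 6 genes throughout, up to 3 called genes per list and comparison by absolute change, and the 3 genes most correlated with each. The comparison of 1.0 M with 0.7 M and the removal of each library's trend on transcript length (a spline with 3 degrees of freedom) were added after seeing the data. Other alternatives were a pseudocount of 0.1, no filter, median-ratio rescaling, no mean-variance trend, a replicate block, all experiments in 1 fit and leaving out each library. Calls of single genes were followed through the alternatives for the 6 genes only, not for the list genes.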

Additional observations from a re-analysis of the deposited data

Results flagged for a closer look

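Among the 42 groups of 4 libraries (6 genes in 7 groups of the 60100 set), a single library stood apart in 4, where chance gives about 1 in 20. All 4 were library 2 of their group, and sugarbabe and cabut shared a library, so the flags are not independent. Library 2 also had the most estimated fragments in these groups. A 1 kb transcript with a value of 1 would have had 17.1 in controls, 18.7 in FOXO RNAi and 17.0 in Stat92E RNAi. Whether the column order marks a batch is not given in the labels. Sugarbabe (CG3850) read 4.16 scaled FPKM in library 2 of the controls at 0.15 M, above 1.88 to 2.02 in the other libraries, and cabut (cbt) read 1.52 in the same library, above 0.587 to 0.744. That library had the highest length slope of the set, 0.251. Daw read 2.29 in library 2 of FOXO RNAi at 0.15 M, above 1.33 to 1.45, in a library with a length slope of 0.191 against -0.077 to -0.064 in the others. Cabut read 0.672 in library 2 of Stat92E RNAi at 0.15 M, above 0.288 to 0.351, with a slope of -0.081. The part of the length trend in these values was not tested.

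Responses that differed between groups by a test of the difference itself were 4. The FOXO RNAi effect on CCHa2 (CG14375) at 0.7 M minus that at 0.15 M was -0.69. The 0.7 M change of CCHa2 in cg females minus that in 60100 controls was 0.72, and that in r4 w1118 females minus that in 60100 controls was 1.05. The 0.7 M change of daw in cg females minus that in 60100 controls was 1.03.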

How the results depend on the processing

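Of the 36 changes called, 21 kept their call under every alternative and 15 lost it under at least 1; no called change turned its direction. The number of members called moved by over 1.5 times as follows. With a pseudocount of 0.1 it was 1 for r4 w1118 females at 1.0 M against 0.3 M, 0 for Stat92E RNAi against controls at 0.15 M and at 0.7 M, and 1 for cg minus r4 w1118 females. With no filter it was 1 for r4 w1118 females at 1.0 M against 0.15 M and against 0.3 M, 1 for Stat92E RNAi between diets and 0 for Stat92E RNAi against controls at 0.7 M. After median-ratio rescaling it was 0 for Stat92E RNAi against controls at 0.15 M and 1 for cg minus 60100 females. With the length trend removed it was 1 for 60100 controls between diets, 1 for p53 RNAi between diets, 1 for Tfb1 RNAi against controls at 0.15 M and 0 for Stat92E RNAi against controls at 0.15 M. With all experiments in 1 fit it was 2 for r4 w1118 females at 0.3 M, 3 at 1.0 M against 0.7 M, 1 for p53 RNAi against controls at 0.7 M and 1 for the Tfb1 difference between diets. The cause was not tested.

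Leaving out single libraries, the count ran from 0 to 1 for r4 w1118 females at 0.3 M and at 1.0 M against 0.7 M, for Tfb1 RNAi against controls at 1.0 M, for Stat92E RNAi against controls on both diets, for the Tfb1 difference between diets and for cg minus r4 w1118 females. It ran from 1 to 2 for r4 w1118 females at 1.0 M against 0.15 M and against 0.3 M, for p53 RNAi and Stat92E RNAi between diets and for FOXO RNAi against controls on both diets. It ran from 1 to 3 for the linear trend, 60100 controls between diets, the FOXO difference between diets and cg minus 60100 females, from 0 to 2 for Tfb1 RNAi against controls at 0.15 M and from 0 to 3 for p53 RNAi against controls at 0.7 M.

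Same-numbered libraries deviated together with correlations of -0.243 to 0.401, so the numbers do not pair them; with a replicate block the count of members called stayed within 1.5 times in all 12 comparisons so fitted. For r4 w1118 females at 1.0 M against 0.15 M it was 2 with the block and 3 without it, where the CCHa2 call was lost. In the 60100 set only the columns of p53 RNAi at 0.15 M carry such numbers, so no paired fit was made there. Cabut, Mondo in the 60100 set and bigmax in males lay near or below a value of 1. Few estimated fragments per library limit bigmax in males (2.4 to 7.2) and sugarbabe in males on 0.15 M (2.0 to 11). They also limit some libraries of cabut, which had 3.76 to 61.5 over all libraries. Mondo in the 60100 set had 12 to 100, on a transcript of 4068 bases.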
